A study of Mus musculus with 12 samples.

Results

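Klf4 encodes a Krüppel-like zinc finger transcription factor of the naive pluripotency network and is one of the classical reprogramming factors. Its expression is high in naive mouse embryonic stem cells (mESCs) and lower after the exit towards primed pluripotency. Super-enhancers are dense clusters of enhancers with strong transcription factor and co-activator occupancy, and the cluster assigned to Klf4 lies beyond the 3′ end of the gene. Tri-C is a chromosome conformation capture method in which crosslinked chromatin is cut with DpnII, ligated and enriched for 1 viewpoint, and reads with several ligated fragments show which regions met the viewpoint on the same allele.

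The Tri-C data described here came from a single viewpoint, the distal super-enhancer of Klf4, and from the fragment pairs with both fragment midpoints within 1 Mb of the capture oligonucleotide. A count is a pair of reporter fragments that were read together with the viewpoint, so that each count holds 2 reporters. The local pairs made up 1329 of 2168 counts in naive cells and 1293 of 2754 counts in primed cells. They stood for 922 of 1666 and 895 of 2191 distinct fragment pairs. All viewpoints of the series together held 134602 counts in naive and 107270 counts in primed cells.

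Both groups were J1 mESCs, an established line, and were 3 biological replicates each, captured with pool 2 of the oligonucleotides. Naive cells were kept in serum-free medium with 2i (PD032591 and CHIR99021) and LIF. Primed cells were derived from them without 2i and LIF, with Fgf2, Activin A and Knockout Serum Replacement. The deposited tables carry 1 column of counts per viewpoint and state with no replicate, and the replicates were taken as pooled. No test across replicates was therefore possible, and no p-value is given. The 95% intervals, exact Clopper-Pearson for shares and from the exact split of the counts for ratios, cover counting error only. They are too narrow where PCR copies were counted or where 1 read with several reporters added several pairs. Intervals over reporters are also too narrow because a count with both reporters in a region adds 2 to it. Values with each count taken once are therefore also given for some distance bands and gene regions. They are also given for the number of bins with an interval above or below 1. Other intervals over reporters have no such value beside them.

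The sequences shown are the capture oligonucleotide, which sets the viewpoint, and the promoter of Klf4, the gene that the super-enhancer is assigned to. In naive cells 80 reporters lay in the Klf4 gene body and 3 on the fragment that covers this promoter stretch. The oligonucleotide is the study's own design and lies in an intergenic stretch at chr4:55475439-55475538 (mm10). The promoter is the 250 bases before the Klf4 start site at chr4:55532476-55532725 on the minus strand, from RefSeq on GRCm38.p6, the assembly also called mm10. Capitals mark GC boxes, searched as GGGCGG and its reverse complement CCGCCC.

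Klf4 distal super-enhancer oligonucleotide: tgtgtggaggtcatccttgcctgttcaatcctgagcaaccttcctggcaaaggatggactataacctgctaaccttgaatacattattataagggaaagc

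Klf4 promoter: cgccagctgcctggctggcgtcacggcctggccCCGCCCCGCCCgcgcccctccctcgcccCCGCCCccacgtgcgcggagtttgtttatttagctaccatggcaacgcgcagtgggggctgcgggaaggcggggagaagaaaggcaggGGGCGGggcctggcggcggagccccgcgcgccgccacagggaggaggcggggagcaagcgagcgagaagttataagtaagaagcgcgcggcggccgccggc

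The oligonucleotide had 100 bases, a GC content of 44% and no DpnII site (GATC). The promoter stretch had a GC content of 74% and 4 GC boxes, 2 of them overlapping, whereas 32.7% of 32817 mouse promoter stretches of the same length held at least 1. It also held no GATC, while 41.9% of the promoter stretches held 1 or more. A single listed DpnII fragment of 1310 bases (chr4:55532001-55533310) therefore covered the whole stretch. That fragment had 3 reporters in naive cells and 0 in primed cells.

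The oligonucleotide lies 51.7 kb below the 3′ end of Klf4 and 57.0 kb below its start site (chr4:55532475, minus strand). Below and above stand for lower and higher coordinates on chromosome 4. The annotation has 30 genes in the window, of which 3 are protein-coding, 16 are lncRNA genes and 9 are pseudogenes. The other protein-coding genes both lie below the viewpoint. Rad23b, which encodes a factor of nucleotide excision repair and of delivery to the proteasome, starts 125 kb below at chr4:55350042. Zfp462, which encodes a zinc finger protein, starts 531 kb below at chr4:54944491. The lncRNA gene Gm12506 starts 234 bases from Klf4 in the opposite direction, so that contacts of the 2 start sites cannot be told apart here.

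The share of local counts was higher in naive cells, at 61.3% (95% interval 59.2 to 63.4) of all counts of the viewpoint against 46.95% (45.1 to 48.8) in primed cells. The naive share was 1.31 times the primed share (1.21 to 1.41). Counts with both reporters beyond 1 Mb on the same chromosome made up 18.9% in naive and 29.1% in primed cells, and counts with 1 reporter beyond 1 Mb made up 19.8% and 23.9%. With 2168 and 2754 counts, the viewpoint ranked 9 of 23 in depth in both states.

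A reporter in the viewpoint region, within 5 kb of the oligonucleotide, was part of 608 local counts in naive and 511 in primed cells. The shares were 45.7% and 39.5%, with a ratio of 1.16 (1.03 to 1.31), and with a region of 2 kb each side the ratio was 0.948 (0.807 to 1.11). The most frequent local pair was the same in both states. It joined the neighbouring fragments chr4:55475767-55475841 and chr4:55475846-55476363 and had 26 counts in naive and 55 in primed cells. The tables listed no fragment over the oligonucleotide itself. Counts with a reporter in this region were set aside for the values that follow, unless stated, which left 721 counts with 1442 reporters in naive and 782 counts with 1564 reporters in primed cells.

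Naive reporters were concentrated below the viewpoint and primed reporters above it. Both reporters lay below in 386 naive counts (53.5%) and 280 primed counts (35.8%), with a ratio of 1.495 (1.28 to 1.75). Both lay above in 225 naive counts (31.2%) and 387 primed counts (49.5%), with a ratio of 0.631 (0.533 to 0.745). Counts with 1 reporter on each side did not differ beyond counting error, at 15.3% and 14.7%, with a ratio of 1.04 (0.792 to 1.36).

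The states differed in distance as well as side. Below the viewpoint and within 200 kb, the share of counts with both reporters was 45.5% in naive and 23.0% in primed cells, 1.98 times higher in naive cells (1.64 to 2.38). Above the viewpoint and within 200 kb the shares were 19.0% and 20.8%, and the interval of their ratio spanned 1 (0.721 to 1.15). Beyond 200 kb above the viewpoint, 63 naive counts (8.74%) stood against 195 primed counts (24.9%), a ratio of 0.350 (0.260 to 0.468). Beyond 200 kb below, the shares were 6.24% and 8.95%, with a ratio of 0.697 (0.469 to 1.03). By single reporters the far end of this side was also lower in naive cells. From 500 to 1000 kb below lay 37 naive (2.57%) and 114 primed reporters (7.29%), a ratio of 0.352 (0.236 to 0.514), and with each pair counted once it was 0.404 (0.266 to 0.601).

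**Figure D1:**
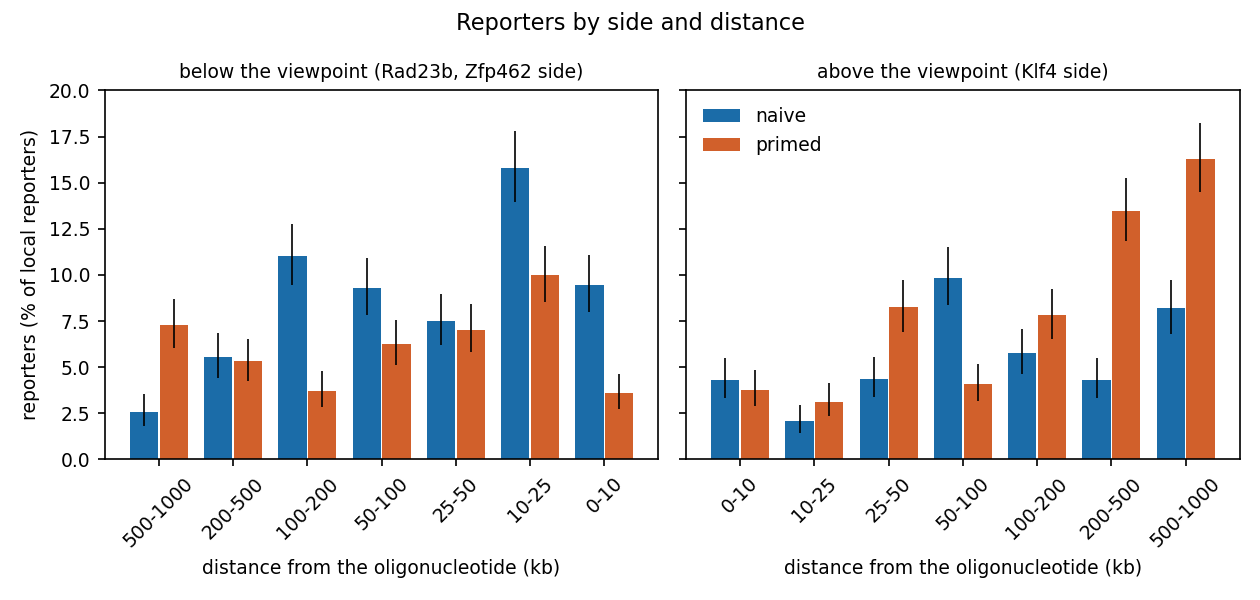
Share of local reporters outside the viewpoint region in each distance band (kb from the oligonucleotide), below (left) and above (right) the viewpoint, for naive (blue, 1442 reporters) and primed cells (orange, 1564 reporters). Bars start at 0 and lines are exact 95% counting intervals. The naive bars are higher within 25 kb below (9.43% against 3.58% in the band nearest the viewpoint), from 50 to 200 kb below (11.0% against 3.71% beyond 100 kb) and from 50 to 100 kb above (9.85% against 4.09%). The primed bars are higher from 10 to 50 kb above, beyond 100 kb above and from 500 to 1000 kb below (2.57% against 7.29%).

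In distance bands, the naive share of reporters was highest relative to the primed share from 100 to 200 kb below the viewpoint, where it was 11.0% against 3.71% (ratio 2.97, 2.19 to 4.09). This band holds the start site of Rad23b. The band of 50 to 100 kb above, which holds Klf4, had 9.85% against 4.09% (ratio 2.41, 1.78 to 3.29). Within 10 kb below the viewpoint the shares were 9.43% and 3.58% (ratio 2.63, 1.92 to 3.66), and from 10 to 25 kb below they were 15.8% and 9.97% (ratio 1.58, 1.29 to 1.956). The bands on both sides of the Klf4 band had lower naive than primed shares. From 25 to 50 kb above, the shares were 4.37% and 8.25% (ratio 0.530, 0.385 to 0.721), and from 100 to 200 kb above they were 5.76% and 7.80% (ratio 0.738, 0.552 to 0.983). With each distinct pair counted once, the intervals of these neighbouring bands spanned 1 (ratios 0.804 and 0.860), while the band of Klf4 had a ratio of 1.85 (1.33 to 2.57) and that of 100 to 200 kb below a ratio of 2.60 (1.88 to 3.64). With each count taken once per band, the highest ratio was instead that within 10 kb below, at 2.78 (1.90 to 4.14). By this measure the band of Klf4 had a ratio of 2.42 (1.68 to 3.53), that of 100 to 200 kb below 2.53 (1.77 to 3.67) and that of 25 to 50 kb above 0.673 (0.461 to 0.973). Then the interval spanned 1 from 100 to 200 kb above (0.510 to 1.06) and from 50 to 100 kb below (0.972 to 1.85).

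Reporters that lay far from each other were not more frequent in naive cells. The reporters were over 50 kb apart in 25.2% of naive and 30.2% of primed counts, with a ratio of 0.836 and an interval that reached 1.02. Over 100 kb apart, the shares were 17.3% and 25.1% (ratio 0.692, 0.548 to 0.870), and over 50 kb apart on the same side of the viewpoint they were 12.6% and 17.8% (ratio 0.710, 0.539 to 0.931). Among pairs within 200 kb of the viewpoint the same ratio was 1.15 (0.833 to 1.60). Pairs of neighbouring fragments, which lie side by side on the chromosome with only a DpnII site between them, made up 39.7% of the naive and 42.2% of the primed counts. The median separation of reporters was 1.12 kb in naive and 1.57 kb in primed cells.

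At Klf4 itself, 94 of 1442 naive reporters lay within 5 kb of the start site, whereas only 10 of 1564 primed reporters did. The shares were 6.52% (5.30 to 7.92) and 0.639% (0.307 to 1.17), so that the naive share was 10.2 times higher (5.31 to 21.9). Without neighbouring fragments the ratio was 6.49 (3.06 to 15.9), and with each pair also counted once it was 5.81 (2.72 to 14.3). Counted by pairs, 67 naive and 9 primed counts had a reporter there, on 50 and 9 distinct fragment pairs, a ratio of 8.07 (4.01 to 18.4). The gene body of Klf4 had 80 naive and 6 primed reporters, a ratio of 14.5 (6.36 to 40.6), or 10.1 by counts (4.37 to 28.7), and 10 kb each side of the start site gave a ratio of 5.25 (3.39 to 8.43). The gene body lies largely within 5 kb of the start site, so these regions overlap and are not separate measures.

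The signal at Klf4 stood out from its surroundings in naive cells. The region of the same size at the same distance below the viewpoint had 13 naive and 25 primed reporters. There the ratio was 0.564 (0.265 to 1.15), and the naive share of 0.901% was below the 6.52% at Klf4. The whole band of 50 to 100 kb below had 134 naive and 98 primed reporters, a ratio of 1.48 (1.13 to 1.945). Its interval by counts spanned 1, as given above. In 10 kb bins, naive reporters numbered 13, 15 and 29 in the bins centred 20, 30 and 40 kb above the viewpoint. They were 57 and 70 in the bins centred 50 and 60 kb above, which hold Klf4, and 16 and 13 in the bins centred 70 and 80 kb above. Primed reporters in the bins centred 50, 60, 70 and 80 kb above numbered 14, 13, 12 and 19, with no higher level at the gene. In the naive bin centred 60 kb above, 3 pairs gave 30 of the 70 reporters, and with each distinct pair counted once its ratio fell from 5.84 to 3.47 (1.82 to 7.04).

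**Figure D2:**
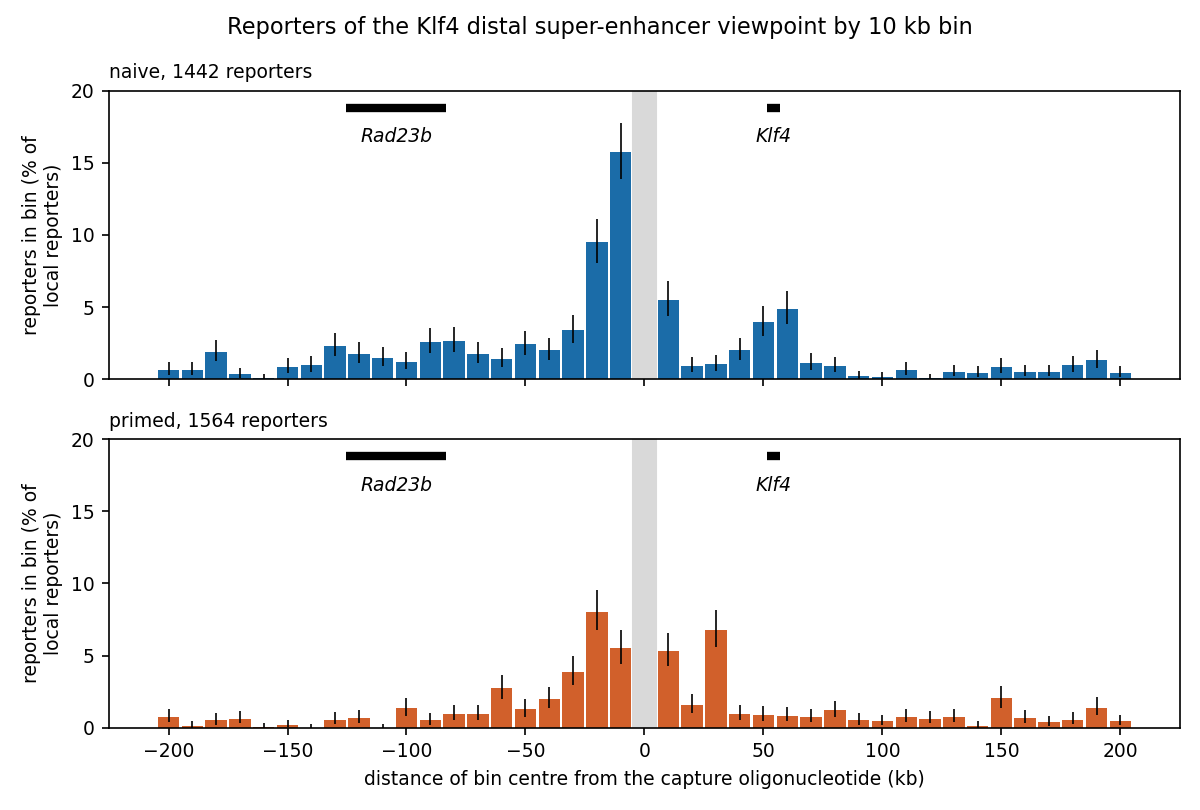
Share of local reporters outside the viewpoint region in 10 kb bins within 200 kb of the oligonucleotide, for naive (top) and primed cells (bottom). The grey band is the viewpoint region left out, black bars are gene bodies and lines are exact 95% counting intervals. In naive cells the bins of Klf4 hold 57 and 70 reporters, against 14 and 13 in primed cells, and the bin centred 10 kb below the viewpoint holds 227 against 86.

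The fragments of Klf4 with the most reporters lay in the gene body close to the start site. They were picked by their reporters, so that their values are a description. The fragment chr4:55531231-55531323 had 17 naive and 0 primed reporters. Of its 17 naive reporters, 14 came from pairs with a neighbouring fragment. The fragment chr4:55531328-55531996 had 16 and 2 reporters. In naive cells it had 14 distinct partners with those in the viewpoint region kept, and 6 of its local counts were with neighbours. The fragment chr4:55530661-55531226 had 13 and 0 reporters. A single pair of neighbours, this fragment with chr4:55531231-55531323, was counted 9 times in naive cells and gave 9 of the 13 and 9 of the 17 reporters.

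The second reporter of the Klf4 counts shows what was read together with the viewpoint and Klf4. Where it lay in the viewpoint region or in the Klf4 promoter region, the count does not show contact with a further region. The paper greyed out regions close to the viewpoint in its matrices, because it expects strong interactions there. With the viewpoint region kept, 99 naive and 13 primed local counts had a reporter at the Klf4 promoter region. The second reporter lay in the viewpoint region itself in 32 naive and 4 primed counts, on 26 and 4 distinct pairs, which gives a ratio per local count of 7.78 (2.76 to 30.3). It lay below the viewpoint within 200 kb in 17 and 4 counts, a ratio of 4.13 (1.35 to 16.9), and none of these joined neighbouring fragments.

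In 27 naive counts and 1 primed count, both reporters lay in the Klf4 promoter region, and 22 and 1 of these joined neighbouring fragments. Between the viewpoint region and Klf4 lay 8 naive second reporters and 0 primed ones, so that the naive share was at least 2.59 times higher with 3 counts in the place of 0, as in all such bounds here. Above Klf4 and within 200 kb the counts were 3 in each state. Beyond 200 kb above the viewpoint they were 10 and 0, at least 3.24 times higher in naive cells. The exact lower limits of these ratios were 1.66 and 2.18. A share of 0 of 1293 primed counts allows up to 0.232% by the limit of 3 counts and up to 0.285% by the exact interval.

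**Figure D3:**
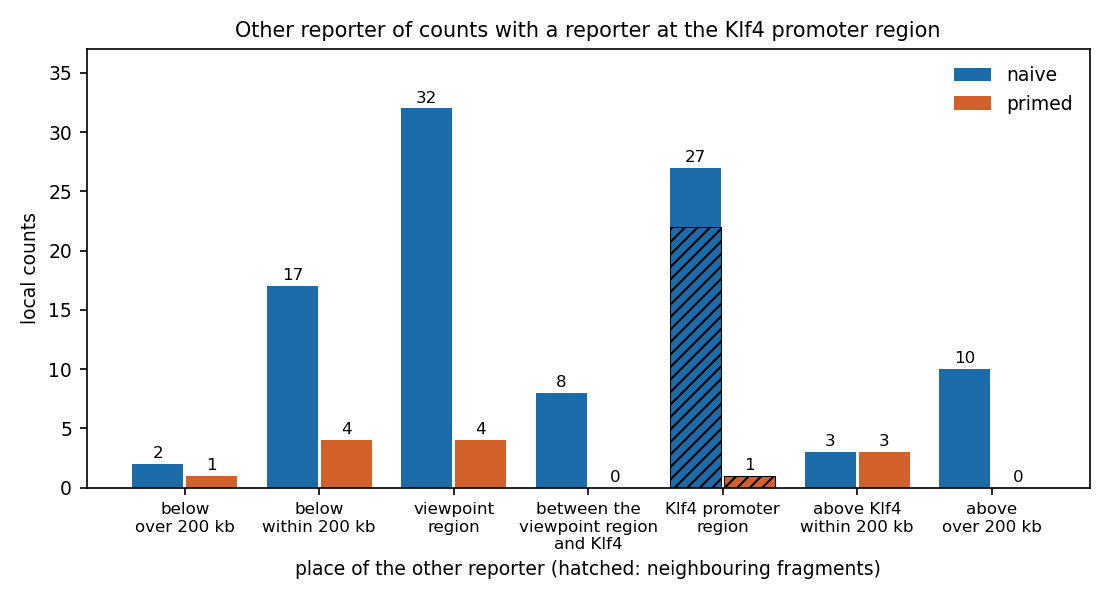
Local counts with a reporter within 5 kb of the Klf4 start site, by the place of the other reporter, for naive (blue, 99 counts) and primed cells (orange, 13 counts). Numbers above the bars are counts and hatching marks pairs of neighbouring fragments. The viewpoint region holds 32 naive and 4 primed partners, and 22 of the 27 naive pairs inside the Klf4 promoter region are neighbours.

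Counts with 1 reporter in the viewpoint region and 1 outside, set aside above, numbered 373 in naive and 304 in primed cells. They share no count with the 721 and 782 counts outside the viewpoint region, though a read with several reporters can add to both sets. The 32 naive and 4 primed counts at the Klf4 promoter region are those given above as its pairs with the viewpoint region. As shares of this set they were 8.58% (5.94 to 11.9) and 1.32% (0.360 to 3.33), with a ratio of 6.52 (2.31 to 25.4). The outside reporter lay below the viewpoint more often in naive cells, at 61.1% against 47.0% (ratio 1.30, 1.05 to 1.61), and within 200 kb on either side more often, at 84.7% against 58.9% (ratio 1.44, 1.19 to 1.74). It lay less often in naive cells beyond 200 kb on both sides, at 10.7% against 26.6% above (ratio 0.402, 0.268 to 0.595) and 4.56% against 14.5% below (ratio 0.315, 0.169 to 0.562).

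Rad23b also had more reporters in naive cells. Within 5 kb of its start site lay 41 naive and 8 primed reporters, 2.84% and 0.512%, with a ratio of 5.56 (2.57 to 13.7), and 31 and 6 counts (ratio 5.60, 2.30 to 16.43). The gene body had 106 and 44 reporters (ratio 2.61, 1.82 to 3.80), and 70 and 33 counts (ratio 2.30, with an interval above 1). With 1 reporter in the viewpoint region, the Rad23b gene body was the outside reporter in 28 naive and 2 primed counts (ratio 11.4, 2.88 to 98.8). Its promoter region was met by 10 and 0 counts, at least 2.72 times more often in naive cells (exact lower limit 1.83). No count in either state joined the Rad23b and Klf4 promoter regions, which allows a share of up to 0.416% in naive cells by the limit of 3 of 721 counts and up to 0.510% by the exact interval. The Rad23b gene body and the Klf4 promoter region were joined by 0 naive and 2 primed counts, so three-way contacts of the viewpoint with both genes were not detected in naive cells.

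At Zfp462 the direction depended on the measure. Its gene body had 69 naive and 38 primed reporters in counts outside the viewpoint region (ratio 1.97, 1.31 to 3.01). Both reporters lay inside the gene in 30 naive and 12 primed counts (ratio 2.71, 1.35 to 5.82). Counts with at least 1 reporter in the gene body were 39 and 26, with a ratio of 1.63 whose interval spanned 1 (0.966 to 2.78). With 1 reporter in the viewpoint region, the Zfp462 gene body was met by 8 of 373 naive and 16 of 304 primed counts, with a ratio of 0.408 and an interval that reached 1.01. Its promoter region had only 4 and 1 reporters, with a ratio of 4.34 (0.429 to 214), which shows no direction.

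**Figure D4:**
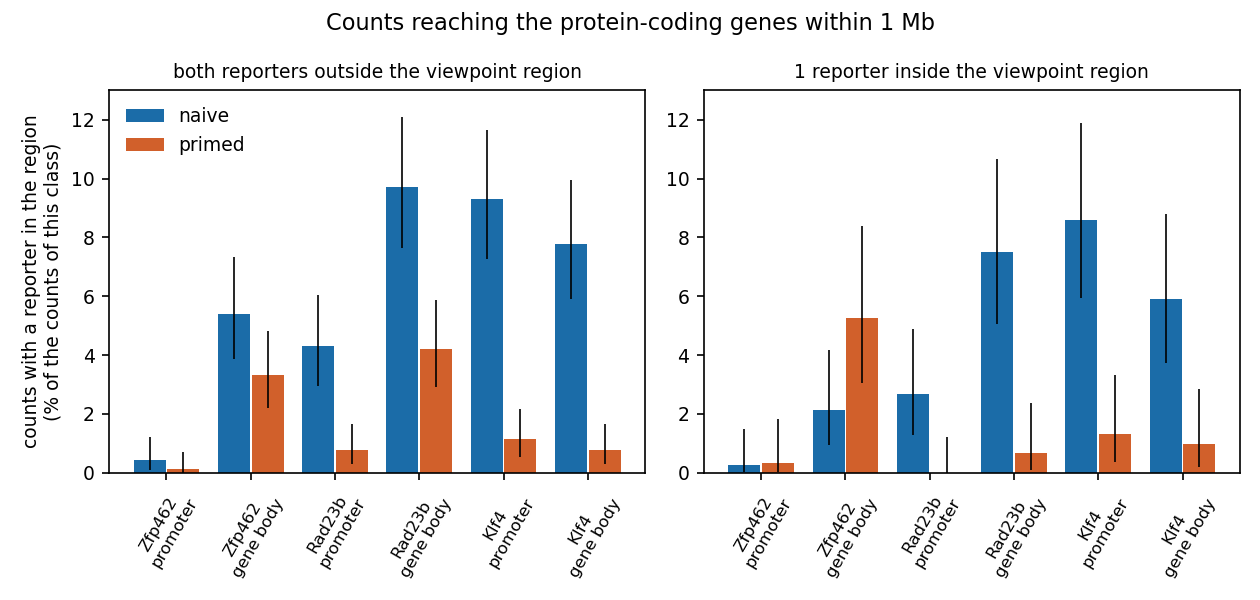
Share of counts with a reporter within 5 kb of the start site (promoter) or in the gene body of each protein-coding gene, for counts with both reporters outside the viewpoint region (left, 721 naive and 782 primed counts) and with 1 reporter inside it (right, 373 and 304 counts). Lines are exact 95% counting intervals. Klf4 and Rad23b are higher in naive cells in both sets, and for the Zfp462 gene body the interval of the ratio spans 1 in both sets.

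The fragments with the most naive reporters formed a cluster about 10 kb below the viewpoint, on the side away from Klf4. They were picked for their naive reporters, which favours a higher naive share, and their values are a description. The fragment chr4:55465855-55466012 had 29 naive and 10 primed reporters, and 18 and 9 local counts of it were with neighbouring fragments. The fragment chr4:55464341-55464549 had 27 and 3 reporters. In naive cells it had 28 distinct local partners with those in the viewpoint region kept, and just 2 of its counts were with a neighbour. The fragment chr4:55465133-55465747 had 26 and 11 reporters.

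The 10 kb bin around these fragments held 227 naive and 86 primed reporters, 15.7% and 5.50%, with a ratio of 2.86. It was chosen through the picked fragments, so these values of the bin are a description too. The neighbouring bin, centred 20 kb below, held 137 and 126 reporters, and its ratio of 1.18 had an interval that spanned 1. With 1 reporter in the viewpoint region, the bin centred 10 kb below was met by 109 of 373 naive (29.2%) and 39 of 304 primed counts (12.8%), a ratio of 2.28 (1.57 to 3.37). This bin also shared counts with Klf4. It was joined with the Klf4 promoter region in 11 naive counts on 9 distinct pairs and in 2 primed counts (ratio 5.97, 1.30 to 55.4).

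The fragments with the most primed reporters lay between the viewpoint and Klf4, about 30 kb above the viewpoint. The fragments chr4:55507013-55507408 and chr4:55510026-55510804 each had 20 primed and 0 naive reporters. They were picked for their primed reporters, so the values describe them and no fold is given. The fragment chr4:55509990-55510021 had 17 primed reporters and 1 naive reporter. These 3 fragments were joined to one another in 3 pairs of 8 counts each, and none of these pairs was seen in naive cells. Whether the counts came from 1 ligation product was not tested.

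The bin that holds them, centred 30 kb above, had 15 naive and 106 primed reporters, a ratio of 0.154. It was chosen through fragments picked for their primed reporters, which favours a higher primed share. Its values from counts outside the viewpoint region are therefore a description. The 3 pairs gave 48 of the 106 primed reporters. When each distinct pair was counted once the ratio was 0.294 (0.151 to 0.540), and the bin had 12 naive and 37 primed distinct pairs. With 1 reporter in the viewpoint region, the same bin was met by 2 naive and 10 primed counts (ratio 0.163, 0.0174 to 0.765).

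Over the whole window, 182 bins of 10 kb held a reporter and 33 had at least 20 reporters over both states. Of these 33 bins, 12 (36.4%) had a naive share at least 2-fold the primed share and 5 (15.2%) a primed share at least 2-fold the naive share. In the 22 other viewpoints of the series, 9.24% of 1072 such bins had a naive share at least 2-fold higher and 29.1% a primed share at least 2-fold higher. Total counts of a viewpoint differed widely, with medians of 92 naive and 74 primed over all 23 and highest totals of 41081 and 32749. These bins are thus not a background of like depth, and the effect of depth was not tested. At the Klf4 viewpoint the balance turned with a minimum of 10 reporters, with 16 bins higher in naive and 21 higher in primed cells of 67. The interval lay above 1 in 13 bins of the Klf4 viewpoint and below 1 in 6, and in 163 and 406 of the 1072 bins of the other viewpoints. With each count taken once per bin, it lay above 1 in 11 and below 1 in 4 of the 33 bins of the Klf4 viewpoint.

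The 3 bins with the highest ratios lay in gene bodies below the viewpoint. They and the 3 bins with the lowest ratios were picked by the ratio and passed the minimum mainly through 1 state, so that their direction is fixed by the choice and their values are a description. The bin centred 110 kb below, in Rad23b, had 21 naive and 0 primed reporters. The bins centred 490 and 420 kb below, both in Zfp462, had 18 against 2 reporters and 25 against 4. They rested on 6 and 7 distinct pairs in naive cells.

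The 3 bins with the lowest ratios lay far above the viewpoint. The bins centred 500 and 520 kb above, both in the lncRNA gene Gm12519, had 1 naive reporter each and 36 and 34 primed reporters. In primed cells they rested on 5 and 7 distinct pairs, and the neighbouring fragments chr4:55970869-55970895 and chr4:55970900-55971382 alone gave 16 of the 20 counts of the first bin. The bin centred 780 kb above, outside annotated genes, had 1 naive and 21 primed reporters on 10 primed distinct pairs. Counting each pair once left 1 bin with a primed share at least 2-fold higher, among the bins then past the minimum.

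In pairs of 20 kb bins, 29 had at least 10 counts. Of these, 11 (37.9%) had a naive share at least 2-fold higher and 7 (24.1%) a primed share at least 2-fold higher. In the 22 other viewpoints, again of unlike depth, 20.3% and 21.4% of 1268 bin pairs did. With a minimum of 5 counts the balance turned here too, with 17 higher in naive and 22 higher in primed cells of 59. With each pair counted once, 10 and 2 bin pairs of 21 were higher, without neighbouring fragments 5 and 1 of 12, and with both 6 and 0 of 10. Pairs with both reporters in the same bin made up 60.9% of naive and 57.8% of primed counts, a ratio of 1.05 (0.922 to 1.20), and 4 of the 5 bin pairs with the most naive counts and all 5 with the most primed counts were of this kind.

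The bin pair with the most counts was in both states the bin centred 20 kb below with itself, at 96 naive and 70 primed counts. The bin centred on the viewpoint, without its inner 5 kb each side, had 59 and 36 counts with itself, and 25 and 14 with the bin centred 20 kb below. The bin of Klf4, centred 60 kb above, had 37 naive counts and 5 primed counts with itself, and the ratio was 8.03 (3.15 to 26.2). With each pair counted once it had 22 and 5, with a ratio of 4.72 (1.74 to 15.9). The bin centred 80 kb below, which holds the 3′ end of Rad23b, had 25 and 5.

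Between the viewpoint and Klf4, the bin centred 20 kb above had 4 naive and 18 primed counts with itself (ratio 0.241, 0.0593 to 0.732). The bin centred 40 kb above had 14 and 39 (ratio 0.389, 0.195 to 0.733), of which 24 primed counts were the 3 repeated pairs described above, and without them it had 14 and 15 (ratio 0.981, 0.439 to 2.18). The bin of 10 kb centred 40 kb above, which does not hold these pairs, had 29 naive and 15 primed reporters (ratio 2.10, 1.09 to 4.21). The bin centred 40 kb below, with 19 and 22 counts, did not differ beyond counting error. Away from the diagonal, the Klf4 bin met the bin centred on the viewpoint in 11 naive and 2 primed counts (ratio 5.97, 1.30 to 55.4) and the bin centred 20 kb below in 7 and 0 (at least 2.53 times higher in naive cells, exact lower limit 1.56).

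**Figure D5:**
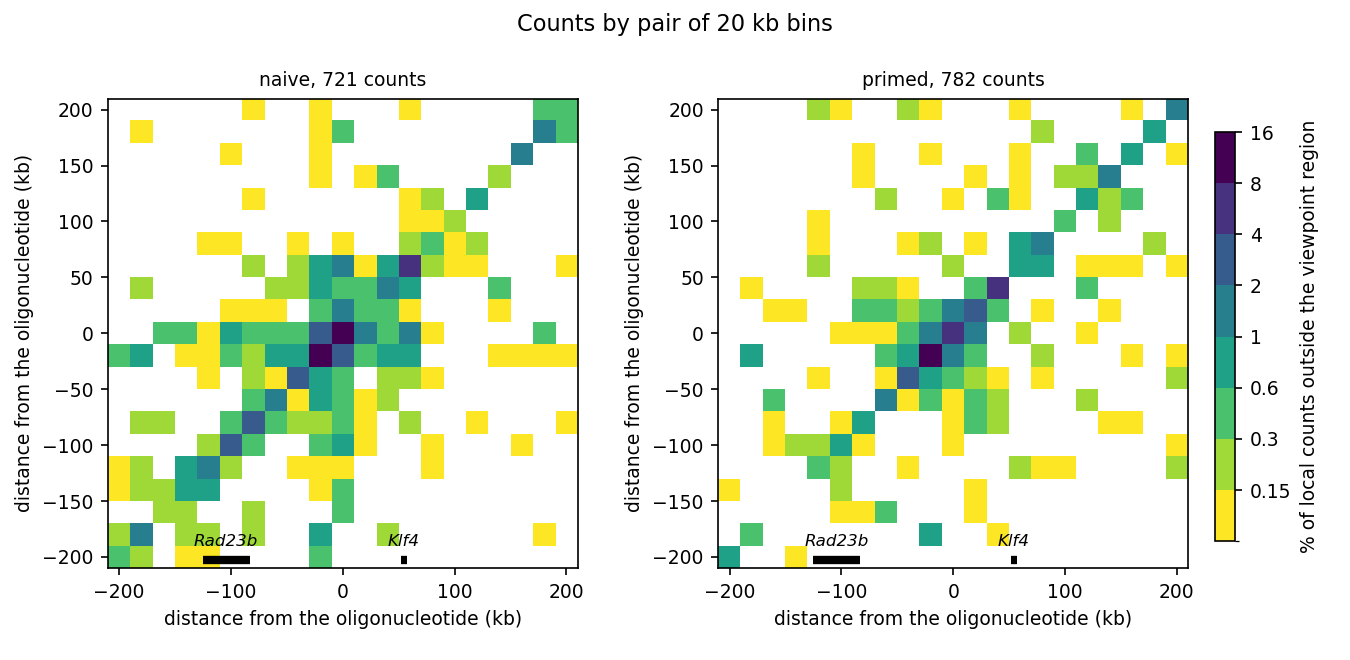
Share of local counts outside the viewpoint region for each pair of 20 kb bins within 200 kb of the oligonucleotide, for naive (left, 721 counts) and primed cells (right, 782 counts). Both axes give the distance in kb, the colour steps give the percent of counts and white bin pairs had no count. The Klf4 bin with itself holds 37 naive and 5 primed counts, and the bin pairs that join it with the bins centred on and 20 kb below the viewpoint hold 11 and 7 naive but 2 and 0 primed counts.

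Most pairs were seen once, 82.6% in naive and 81.4% in primed cells, and whether this limits how many are shared was not tested. Of 552 naive and 592 primed distinct pairs outside the viewpoint region, 56 were seen in both states, which is 10.1% of the naive and 9.46% of the primed pairs, and 46 of the 56 joined neighbouring fragments. Of the distinct fragments, 221 were shared, 37.8% of the naive and 29.0% of the primed ones. The share expected at this depth was not computed. A local pair had 1.44 counts on average in naive and 1.45 in primed cells, so that repeated counting was alike in both states on average.

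For comparison, 3 other super-enhancer viewpoints with more counts in each state were used. The local share went from 68.0% in naive to 59.6% in primed cells at Txnip-distal-SE, from 57.4% to 54.4% at Elovl6-SE1 and from 60.8% to 53.4% at Tdgf1-Lrrc2-SE. The odds ratio of naive over primed at the Klf4 viewpoint, 1.79 (1.60 to 2.01), was 1.24 times that at Txnip-distal-SE (1.09 to 1.41), 1.58 times that at Elovl6-SE1 (1.38 to 1.81) and 1.32 times that at Tdgf1-Lrrc2-SE (1.14 to 1.53). For counts with both reporters within 200 kb, among local counts outside the viewpoint region, the Klf4 viewpoint went from 74.6% to 51.4%, and its odds ratio was 3.04, 1.42 and 2.94 times those of the same 3 viewpoints. None of these intervals reached 1. Tdgf1-Lrrc2-SE was captured with pool 1 and the others with pool 2, and differences in how the libraries were counted were not tested.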

How the data were processed

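Tri-C libraries of naive and primed J1 mESCs were processed by the authors with CapCruncher in capture mode against mm10, and reads with 2 or more reporter fragments on the chromosome of the viewpoint were extracted with scripts of their own. Its version, its aligner and how it handled PCR duplicates were not given in the sources used here. Deposited values are whole-number counts per pair of DpnII fragments, made by the authors without normalization. Samples were grouped by state and oligonucleotide pool, and the pool of a viewpoint was taken from the study's list of oligonucleotides.

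Fragments were placed by their midpoints relative to the first base of the oligonucleotide. All 18 listed fragment ends within 5 kb lay at a GATC of the NCBIM37 sequence at the same offset. Local counts had both midpoints within 1 Mb. Counts with a reporter within 5 kb were left out except where stated. Bins were 10 kb wide with at least 20 reporters over both states, or 20 kb for pairs with at least 10 counts, and were compared at 2-fold. Shares were divided by the total of the state, so depth cancels, but a rise in 1 region lowers the shares of others. A state without a count was given 3 counts for a bound. Intervals were exact 95% intervals of counting error, and ratios of odds ratios had normal intervals on the log scale. The intervals of ratios of shares were tested on simulated reporters drawn independently, without the pairing and repeated counts of the data. That test cannot show how much too narrow they are here. The intervals of odds ratios were not tested. Total counts were 2168 and 2754.

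Named were all protein-coding genes with a start site in the window, the 3 bins with the highest and the 3 with the lowest ratio, and the 5 bin pairs and 3 fragments with the most counts in each state. Other regions, the Klf4 fragments, the bins around Klf4, the mirror region and the pairs that join named regions were chosen after the values were seen. The members and lists were chosen with earlier results of these data known. Genes and start sites came from RefSeq (GRCm38.p6). Computations used Python 3.11.15 with pandas 2.3.3, scipy 1.17.1 and numpy 2.4.6. Matplotlib 3.10.9 drew the plots.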

Additional observations from a re-analysis of the deposited data

How the results depend on the processing

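No paired analysis was possible because each table gives a single count column per state, so that leaving out single replicates could not be run either. Alternatives without neighbouring fragments, with each pair also counted once, without the 3 repeated primed pairs and with each count taken once per region were chosen after seeing the data. Of 134 alternative values, 106 stayed within the counting error of the reported value, or for numbers of bins within 1.5 times, and 1 ratio whose interval excluded 1 changed direction. Among ratios whose interval spanned 1, counts on both sides of the viewpoint ran from 0.924 to 1.04 and the Zfp462 promoter from 0.620 to 4.83. The naive over primed ratio of the Klf4 promoter region ran from 5.25 (10 kb each side of the start site) to 14.5 (gene body), with every interval above 1, and that of Rad23b from 2.61 to 6.20. The ratio of counts with both reporters below ran from 1.36 to 1.53, and with both above from 0.620 to 0.717. The share with a reporter in the viewpoint region turned from 1.16 to 0.948 with a region of 2 kb each side. The local share ratio was 1.52 within 500 kb and 1.16 within 2 Mb, that of pairs within the distance limit was 1.22 at 500 kb, and that of reporters over 50 kb apart, whose interval spanned 1, turned to 1.15 in a window of 200 kb, while 5 of its 8 alternatives had an interval below 1 (ratios 0.692 to 0.802). Counts per distinct pair were 1.31 in naive cells without the viewpoint region. Against Txnip-distal-SE and Tdgf1-Lrrc2-SE the ratio of odds ratios was 1.53 and 1.75 within 500 kb, and against Elovl6-SE1 it was 1.83 with each pair counted once.

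The numbers of bins and bin pairs past 2-fold depended most on the settings. Bins higher in naive cells were 4 at a minimum of 50 reporters and 7 with each pair counted once and no neighbours. Bins higher in primed cells were 21, against 16 higher in naive cells, at a minimum of 10 reporters and 1 at a minimum of 50, with each pair counted once, without neighbours and with both. Bin pairs higher in naive cells were 17 with nothing left out and at a minimum of 5 counts, 5 in a window of 200 kb and without neighbours, 6 with each pair counted once and no neighbours, and 3 at a minimum of 20. Bin pairs higher in primed cells were 2 with each pair counted once and at a minimum of 20, 22 at a minimum of 5, 1 without neighbours, and 0 with each pair counted once and no neighbours. The cause was not tested. Depth limits most single bins, since 149 of the 182 bins with a reporter had fewer than 20.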
